A study of Mus musculus with 22 samples.

Results

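Mitochondrial ribosomal proteins are the protein subunits of the ribosome inside mitochondria. Genes of these proteins were taken as those whose probe sets carry 1 gene symbol that starts with Mrpl or Mrps followed by a digit. The rule gave 127 probe sets of 74 genes, out of 12393 genes that had a probe set with 1 symbol on the array. All 74 had a probe set bright enough to test (log2 intensity above 4 on at least 4 arrays) and were tested among 6437 genes, each through its brightest probe set. By known position in the ribosome, 49 genes encode large-subunit proteins and 24 small-subunit proteins. The remaining gene, Mrps36, carries the family's name but encodes a subunit of the 2-oxoglutarate dehydrogenase complex.

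The series compared B cells of C57Bl/6 mice at 3 stages on Affymetrix MOE430A arrays, with 1 array per sample. The groups are 4 arrays of wild type B220+ cells, 5 of premalignant B220+ cells from Eμ-Myc transgenic mice, and 13 of malignant Eμ-Myc lymphocytes, which are lymphomas from separate transgenic mice. The transgene drives Myc from the immunoglobulin heavy chain enhancer, so that Myc is raised in the B lineage. The wild type and premalignant mice were littermates aged 4 to 6 weeks. The lymphomas' labels repeat that age, which was not used here. Cells were isolated on magnetic beads against B220 or IgM from bone marrow or spleen, and which tissue served which array is not stated. The wild type and premalignant arrays are called biological replicates, with no word on separate animals, so their p-values measure the spread between these samples, which may be technical.

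Mitochondria keep a small genome of their own that encodes core subunits of the respiratory chain and ATP synthase. These are translated by a dedicated ribosome whose RNA is mitochondrial but whose proteins are all encoded in the nucleus, made in the cytosol and imported. The small subunit decodes the messenger RNA, and the large subunit forms peptide bonds and holds the exit tunnel. Many of the proteins descend from bacterial ribosomal proteins, and others are found only in mitochondria. Myc is a transcription factor that binds the E-box CACGTG and is known to promote the making of ribosomes and mitochondria.

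The sequence just upstream of the genes was examined for such sites. Windows from 250 bases before to 50 bases after the transcription start (RefSeq, GRCm38.p6) were on hand for 65 of the 74 genes, 71 windows in all. Motifs were searched on both strands, with overlapping matches allowed. The E-box CACGTG occurred in 9.9% of the members' windows, against 10.8% of the windows of all genes tested and 7.2% of all windows in the table. In Mrpl2 the same E-box was counted in each of its overlapping windows, and by gene 5 of 65 members held one. CCGGAAG, the core bound by ETS-family factors such as GABP, occurred in 33.8% of the members' windows, against 20.6% of those of genes tested and 8.9% of all windows. AAGATGG, the core bound by YY1, occurred in 16.9% of the members' windows and in 8.0% of those of genes tested. For the NRF1 core CATGCGC the shares were 11.3% and 7.8%, and CCAAT occurred in 39.4% of the members' windows against 37.4% of all windows. A match describes these letters only and is not evidence of binding.

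5 members held an E-box. In malignant relative to wild type cells 4 of them were called higher, against 44 of the 60 members with a window and no E-box. In premalignant relative to wild type cells the counts were 1 of 5 and 19 of 60, and in malignant relative to premalignant cells 3 of 5 and 15 of 60. The shares of all genes tested called higher were 31.8%, 12.7% and 24.8% in that order, and 15 of 60 was near the last of these. The E-boxes of the 4 called members, in capitals, are shown because they match the site that Myc recognises. The fifth, Mrpl36, was not called in any comparison (log2 0.17 in malignant relative to wild type cells).
Mrpl20: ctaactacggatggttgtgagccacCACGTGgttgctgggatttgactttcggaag
Mrpl37: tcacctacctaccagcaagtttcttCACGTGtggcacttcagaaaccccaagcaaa
Mrpl2: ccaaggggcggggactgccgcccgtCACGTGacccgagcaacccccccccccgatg
Mrps18c: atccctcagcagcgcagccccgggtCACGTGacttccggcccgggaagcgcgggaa
The Mrpl20 stretch lies at chr4:155802820-155802875 on the plus strand, the Mrpl37 stretch at chr4:107066998-107067053 on the minus strand, the Mrpl2 stretch at chr17:46646065-46646120 on the plus strand and the Mrps18c stretch at chr5:100798571-100798626 on the plus strand. Counted from the transcription start, the E-boxes begin at positions -33, -162, -131 and -163 in that order. Mrpl2 has other starts close by, from which its E-box begins at -139 or -147. The median log2 change of members with and without an E-box was 0.47 and 0.42 in premalignant relative to wild type cells, 0.58 and 0.25 in malignant relative to premalignant cells, and 1.18 and 0.58 in malignant relative to wild type cells. With 5 members these values are a description only.

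The ETS core was the more common match, in 24 members, 21 of which were called higher and 1 lower in malignant than in wild type cells. Among the 41 with a window and no such core, 27 were called higher and 0 lower. In premalignant relative to wild type cells 11 of 24 and 9 of 41 were called higher, and in malignant relative to premalignant cells 6 of 24 and 12 of 41. The median log2 changes with and without the core were 0.46 and 0.44, 0.26 and 0.26 at these steps, and 0.77 and 0.58 between malignant and wild type cells. Of all genes tested, 31.8% were called higher and 29.7% lower in malignant than in wild type cells. The shares called higher were 12.7% in premalignant relative to wild type cells and 24.8% in malignant relative to premalignant cells, and 6 of 24 was near the latter. These values are a description only. The 3 members with the largest rises among those with the core wholly upstream of the start were picked after their values were seen, and are shown with the core in capitals.
Mrps18a: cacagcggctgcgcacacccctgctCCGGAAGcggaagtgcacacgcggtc
Mrps22: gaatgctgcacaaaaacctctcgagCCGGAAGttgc
Mrps26: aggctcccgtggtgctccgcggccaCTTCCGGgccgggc
All 3 stretches end at the base before the start. They lie at chr17:46110953-46111003 (plus strand), chr9:98601680-98601715 (minus strand) and chr2:130563718-130563756 (plus strand), and the core starts 26, 11 and 14 bases before the start. In Mrps26 it is written as its reverse complement. The same windows showed that Mrpl46 (large subunit, minus strand) and Mrps11 (small subunit, plus strand) lie head to head, with 41 bases between their starts at chr7:78783090-78783130, shown on the plus strand.
Mrpl46-Mrps11: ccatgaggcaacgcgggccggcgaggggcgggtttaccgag
Mrpl46 rose 1.45-fold (log2 0.54 ± 0.19 SE; limma adjusted p = 0.0214) and Mrps11 rose 1.34-fold (log2 0.42 ± 0.15; limma adjusted p = 0.0202) in malignant relative to wild type cells, and neither was called in the other 2 comparisons.

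The median log2 intensity of the 74 members on an array ran between 6.34 and 6.61 in wild type, 6.70 and 7.31 in premalignant and 7.02 and 7.57 in malignant arrays. No wild type array reached the level of any premalignant or malignant array, while the premalignant and malignant ranges overlapped. For 58 members the mean ascended from wild type through premalignant to malignant cells. In 13 the premalignant mean was highest, in Mrpl41 and Mrps24 it was lowest, and in Mrps16 the wild type mean was highest with the premalignant mean just below it. These orders were not counted over all genes tested, so they do not show a trait particular to the members. The arrays differed in other ways beside stage. For beta-actin, signal at the 3′ end was above that at the 5′ end by log2 0.64 to 0.86 in wild type, 0.58 to 0.81 in premalignant and 1.29 to 2.49 in malignant arrays, a measure of RNA or labelling quality whose part in the members' levels between stages was not tested.

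**Figure D1:**
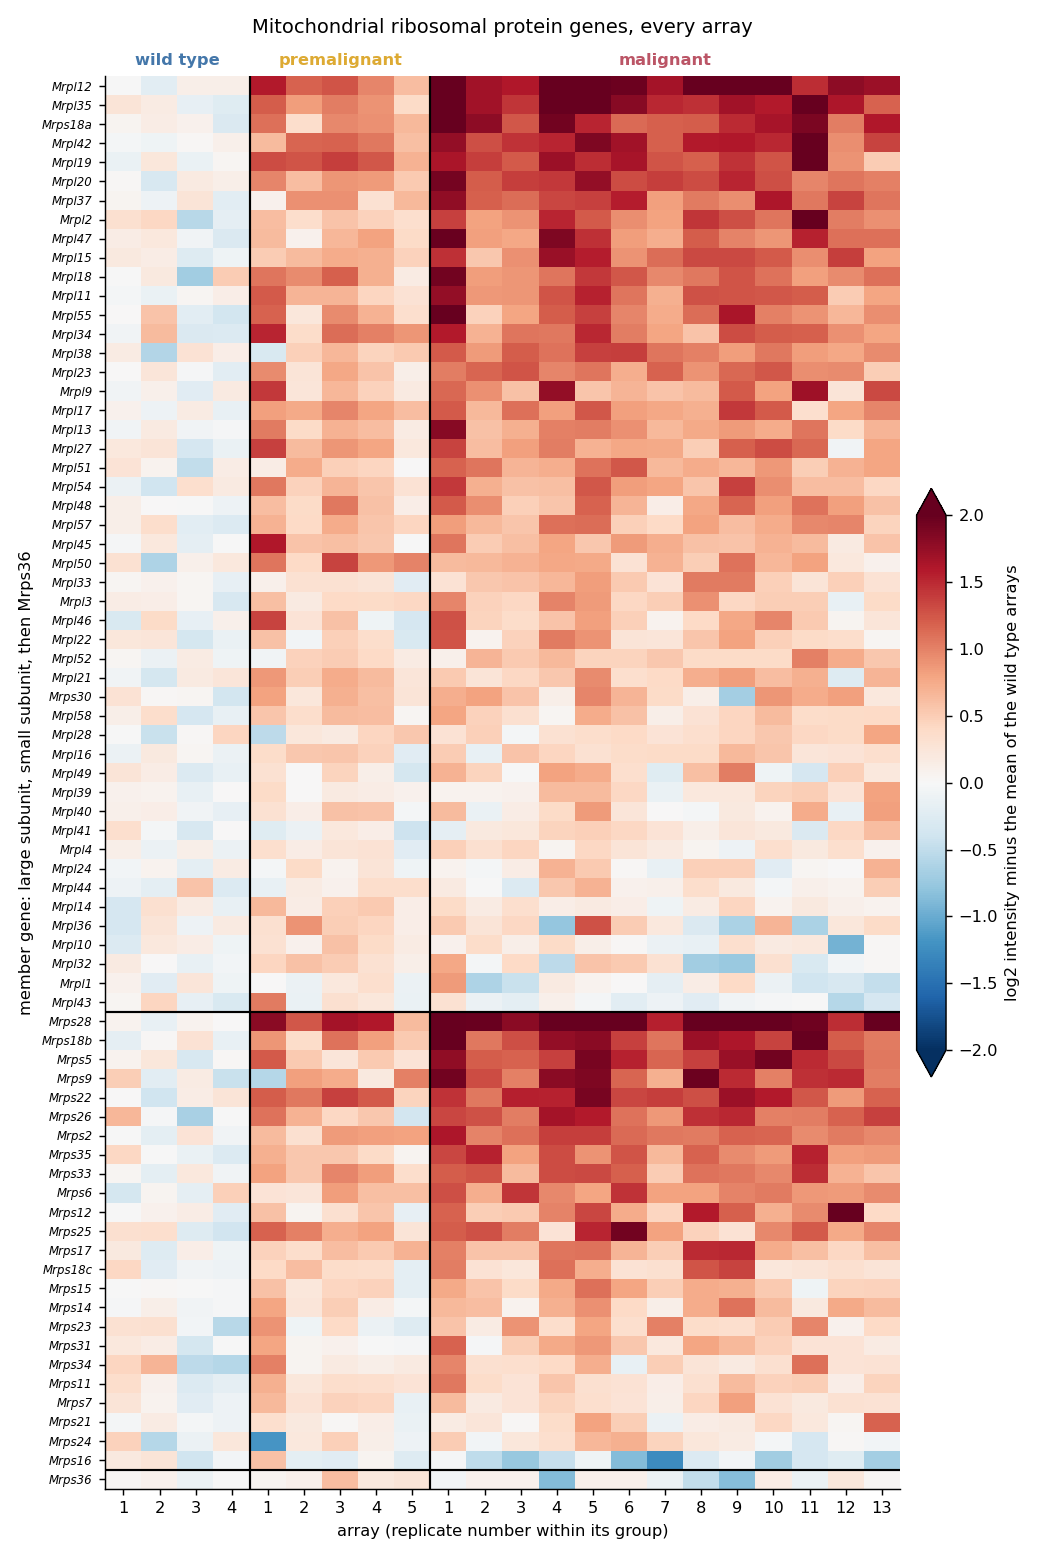
Log2 intensity of each of the 74 members (rows) on each of the 22 arrays (columns) minus the mean of the 4 wild type arrays. Rows run from the largest to the smallest malignant over wild type change within the large subunit, the small subunit and Mrps36. Red marks levels above wild type, which most rows show in both transgenic groups, and the Mrps16 row is blue on most malignant arrays.

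The first comparison asked what changes with the transgene before lymphoma. Members of both subunits were higher in premalignant than in wild type cells, and none was called lower. Of the 74 members, 25 rose, against 12.7% of all genes tested that were called higher, and 0 fell, against 14.1% of all genes called lower (limma, Benjamini-Hochberg adjusted p under 0.05). The median log2 change was 0.45 over the members and -0.05 over all genes tested. A positive change was found in 71 members and in 2892 of the 6437 genes tested. In 21 members all premalignant values were higher than all wild type values, as was the case for 11.2% of all genes tested. Myc, driven by the transgene, was 7.59-fold higher (log2 9.97 ± 0.26 in premalignant and 7.04 ± 0.27 in wild type arrays, SD, n = 5 and 4).

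The largest rise was that of Mrps28, a small-subunit protein also known as bS1m. Its log2 intensity was 6.42, 5.86, 6.28, 6.22 and 5.25 on the premalignant arrays and 4.69, 4.46, 4.69 and 4.62 on the wild type arrays. The groups did not overlap, with premalignant replicate 5 nearest to wild type, and the change was 2.62-fold (log2 1.39 ± 0.22 SE, limma adjusted p = 0.00138). Mrpl19, a large-subunit protein of bacterial ancestry, had 6.68, 6.64, 6.76, 6.62 and 6.07 in premalignant and 5.25, 5.60, 5.24 and 5.41 in wild type arrays, a 2.26-fold rise (log2 1.18 ± 0.16; adjusted p = 0.000671 by limma).

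Mrpl12, the homologue of the bacterial L7/L12 stalk protein that receives translation factors, had 8.41, 8.01, 8.10, 7.82 and 7.45 in premalignant against 6.82, 6.62, 6.94 and 6.94 in wild type arrays. All premalignant values lay above all wild type values, and the rise was 2.18-fold (log2 1.13 ± 0.19; limma adjusted p = 0.00175). Mrps22, a mitochondria-specific small-subunit protein, had 6.85, 6.70, 7.01, 6.86 and 6.09 in premalignant against 5.65, 5.24, 5.79 and 5.90 in wild type arrays, a 2.08-fold rise without overlap (limma adjusted p = 0.00424). These 4 members were the ones called with at least a 2-fold rise at this step, a count not made over all genes tested. Mrpl34, a small protein of the large subunit, rose 1.97-fold although wild type replicate 2 (6.71) lay above premalignant replicate 2 (6.44), and its call was lost without wild type replicate 3 (limma adjusted p = 0.0511) and when arrays were centred on 9 hybridisation spikes, RNAs added at known amounts (limma adjusted p = 0.117). Mrpl50, which is specific to mitochondria, rose 1.91-fold (limma adjusted p = 0.014).

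By subunit, 18 of 49 large-subunit members and 7 of 24 small-subunit members rose, with median log2 changes of 0.51 and 0.41. Of large-subunit members, 12 of 29 with a bacterial homologue and 6 of 20 that are specific to mitochondria rose. In the small subunit the counts were 3 of 15 and 4 of 9. Over all genes tested, 12.7% were called higher at this step. The members with the smallest changes were Mrps16 (log2 -0.0036), Mrpl1 (0.06) and Mrpl41 (-0.09), of which none was called. Spike-based scaling turned the sign of Mrps16 and Mrpl41. The size of the count depended on scaling. When each array was centred on the hybridisation spikes, the median of all genes moved to log2 0.20 and 7 members were called higher, with a median log2 change of 0.71, or 0.50 above that of all genes. In that scaling the calls over all genes were 455 higher and 105 lower, against 818 and 907 without it. With 7 of 74 members and 455 of 6437 genes, the share of members called higher was then near that of all genes.

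**Figure D2:**
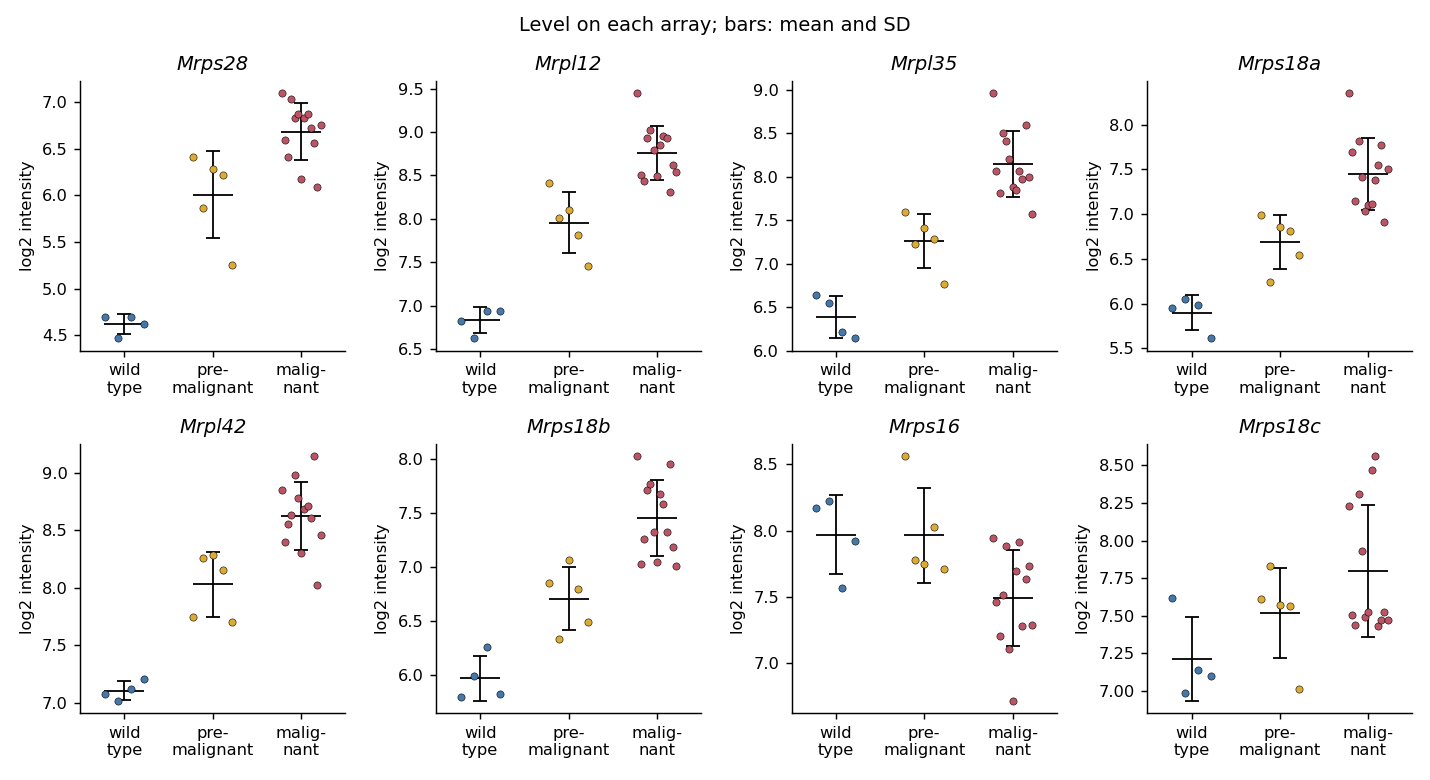
Log2 intensity on every array (points) by stage for the 6 members with the largest malignant over wild type rises, for Mrps16 and for Mrps18c, with the mean and SD as bars. In the first 6 panels the wild type arrays lie below all premalignant and malignant arrays, in the Mrps16 panel the malignant mean is lowest, and in the Mrps18c panel 4 malignant arrays stand above 8.2.

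The second comparison set lymphomas against premalignant cells, both of which carry the transgene. Of the 74 members, 22 rose and Mrps16 fell. The background was 24.8% of all genes tested called higher and 17.3% called lower, or 42.1% called either way, so the share of members called higher (29.7%) was near that of all genes. The median log2 change was 0.27 over the members and 0.09 over all genes. A positive change was found in 60 members and in 3649 of the 6437 genes tested. In 4 members every malignant array lay above every premalignant array, against 6.28% of all genes tested, and in 0 members every malignant array lay below, against 5.93%. With spike centring the calls over all genes were 1209 higher and 562 lower, against 1597 and 1114 without it. Myc itself differed by log2 -0.38 ± 0.26 and was not called (limma adjusted p = 0.255).

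The 2 largest rises at this step were in the small subunit. Mrps9, a homologue of bacterial S9, had a lowest, median and highest log2 intensity of 6.00, 6.75 and 7.25 over the malignant arrays, against 4.72, 6.11, 6.04, 5.49 and 6.29 on the premalignant arrays. The groups overlapped, and the rise was 1.95-fold (log2 0.96 ± 0.24; limma adjusted p = 0.00321). Mrps5, a homologue of bacterial S5, had 6.01, 6.33 and 6.89 in malignant against 6.17, 5.48, 5.20, 5.47 and 5.22 in premalignant arrays. Apart from premalignant replicate 1, all premalignant values lay below the malignant ones, and the rise was 1.87-fold (log2 0.91 ± 0.17; limma adjusted p = 0.000291). Mrpl35 of the large subunit rose 1.85-fold (limma adjusted p = 0.000887), Mrpl12 rose 1.74-fold (limma adjusted p = 0.000919), and Mrps26, a mitochondria-specific protein of the small subunit, rose 1.73-fold (limma adjusted p = 0.00163). Mrps18a rose 1.69-fold (limma adjusted p = 0.0041). No member was called with a 2-fold rise or more.

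Mrps16, the homologue of bacterial S16 and a gene whose mutation impairs mitochondrial translation in humans, was the member that fell. It had a lowest, median and highest value of 6.72, 7.51 and 7.95 on malignant arrays and 8.56, 7.78, 7.75, 8.03 and 7.71 on premalignant arrays. The groups overlapped, with premalignant replicate 1 highest, and the level fell by log2 0.47 (1.39-fold lower; limma adjusted p = 0.0464). The call was lost when premalignant replicate 1, 2, 3 or 4 was left out, with log2 changes between -0.53 and -0.33 and adjusted p of 0.0507 to 0.173 by limma, and it was lost under spike centring (log2 -0.34; limma adjusted p = 0.393). The smallest changes were those of Mrpl58 (log2 -0.01), the peptidyl-tRNA hydrolase of the large subunit, Mrpl45 (log2 -0.02) and Mrps7 (log2 0.02). In the large subunit 13 of 49 members rose (26.5%), and in the small subunit 9 of 24 rose (37.5%) and Mrps16 fell. With 24.8% of all genes tested called higher, the large-subunit share was near that of all genes.

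**Figure D3:**
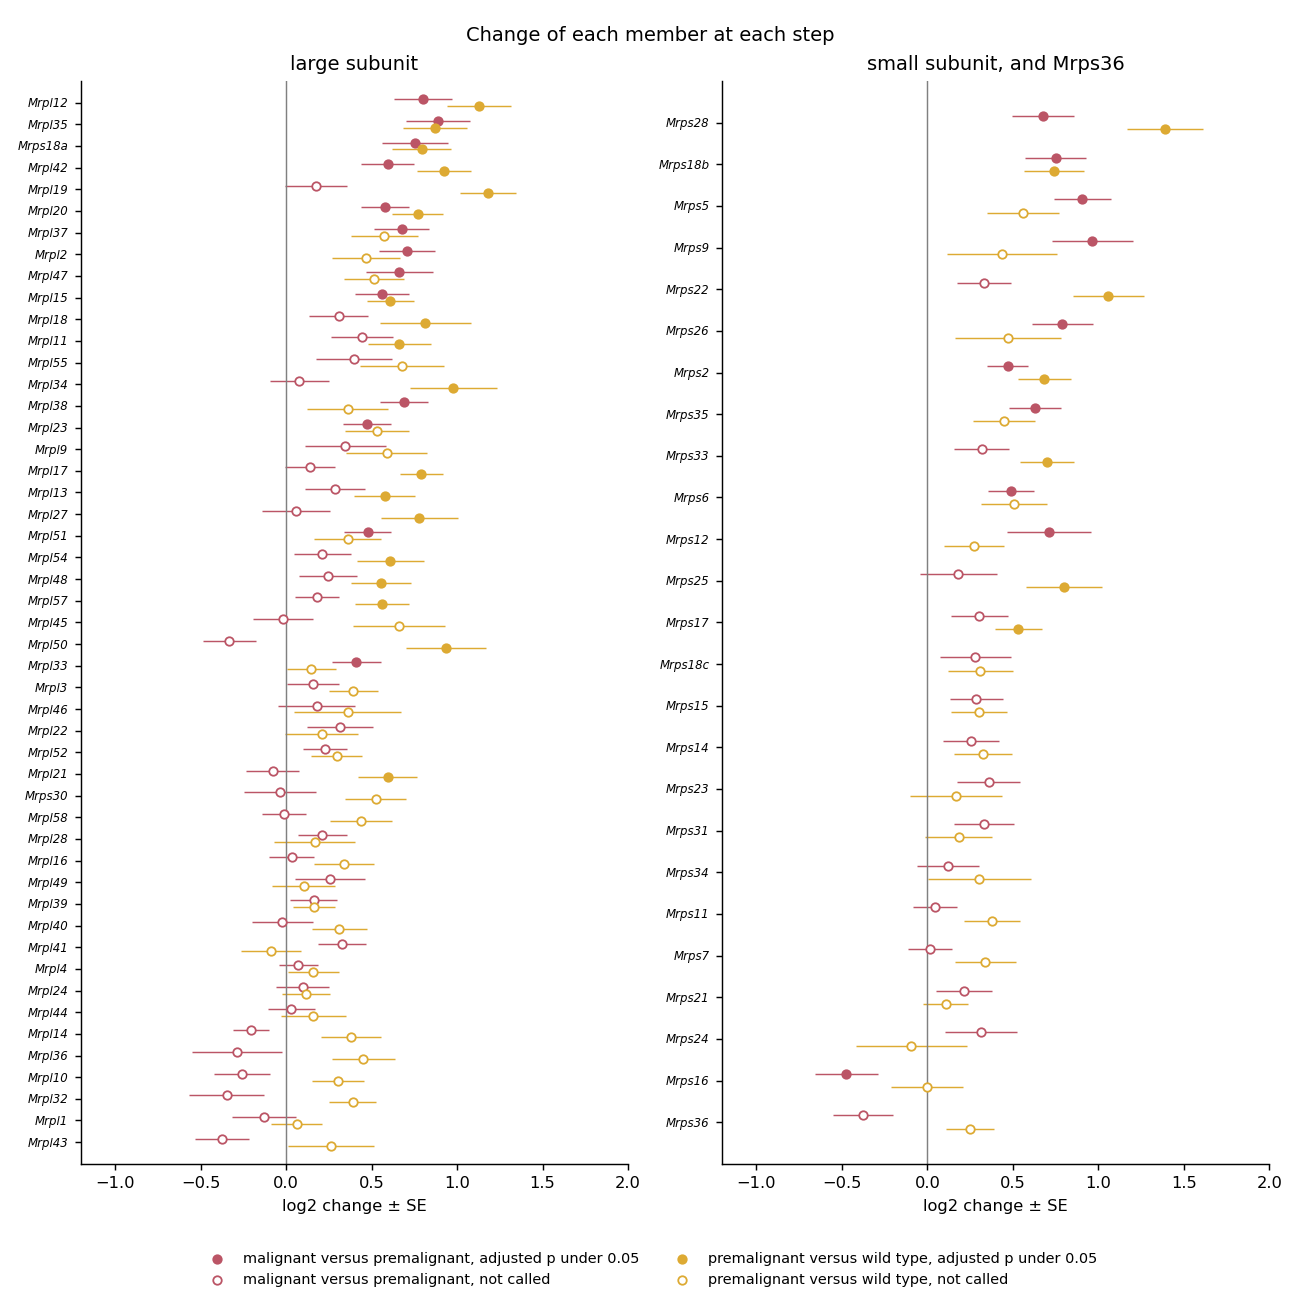
Log2 change ± SE of each member at both steps, with malignant versus premalignant drawn above premalignant versus wild type in each row. Filled points have a limma adjusted p under 0.05. Mrps28, Mrpl12 and Mrpl19 lie farthest right at the premalignant step, Mrps9, Mrps5 and Mrpl35 at the malignant step, and Mrps16 is the filled point left of 0.

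The third comparison set lymphomas against wild type cells, the endpoints of the series. 55 of the 74 members rose and Mrps16 fell, while 31.8% of all genes tested were called higher and 29.7% lower, 61.5% in all. With spike centring 58 members rose and 0 fell, and the calls over all genes were 2349 higher and 788 lower, against 2045 and 1911 without it. The median log2 change was 0.69 over the members and 0.04 over all genes. A positive change was found in 70 members and in 3342 of the 6437 genes tested. In 34 members every malignant array lay above every wild type array, which held for 18.3% of all genes tested. 25 members rose at least 2-fold, a count that was not made over all genes tested. Myc was 5.83-fold higher. In bulk samples like these, fewer cells of a type and less RNA per cell cannot be told apart.

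Mrps28 rose most, 4.19-fold. Its lowest, median and highest log2 intensity was 6.09, 6.76 and 7.10 in malignant cells, against 4.69, 4.46, 4.69 and 4.62 in wild type cells (log2 change 2.07 ± 0.16 SE, limma adjusted p = 4.1e-09). Mrpl12 had 8.31, 8.79 and 9.45 in malignant against 6.82, 6.62, 6.94 and 6.94 in wild type arrays, a 3.80-fold rise (limma adjusted p = 1.48e-08). In both, the groups lay more than 1 log2 unit apart at their nearest arrays. Mrpl35, a mitochondrial homologue of bacterial L35, had 7.57, 8.07 and 8.96 in malignant against 6.64, 6.54, 6.21 and 6.14 in wild type arrays, a 3.39-fold rise (limma adjusted p = 5.05e-07). Mrpl42, which is specific to mitochondria, rose 2.87-fold, with 8.03, 8.63 and 9.15 in malignant against 7.07, 7.01, 7.12 and 7.21 in wild type arrays (limma adjusted p = 1.52e-07).

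The 3 Mrps18 paralogs are versions of bacterial S18, of which Mrps18b and Mrps18c belong to the small subunit and Mrps18a to the large subunit, where it is counted as mitochondria-specific because bacteria have no S18 at that place. Mrps18a had a lowest, median and highest value of 6.92, 7.42 and 8.35 in malignant cells against 5.95, 6.05, 5.98 and 5.61 in wild type cells, a 2.92-fold rise (limma adjusted p = 3.35e-06). Mrps18b had 7.01, 7.33 and 8.03 in malignant against 5.79, 5.99, 6.26 and 5.83 in wild type cells, a 2.80-fold rise (limma adjusted p = 1.82e-06). Both groups of arrays were apart in each of the 2 paralogs, which were also called at both single steps. Under spike centring the premalignant over wild type calls of Mrps18a (limma adjusted p = 0.0638) and Mrps18b (limma adjusted p = 0.0712) were lost. Mrps18c had 7.44, 7.53 and 8.56 in malignant against 7.62, 6.99, 7.14 and 7.10 in wild type cells. It rose by log2 0.59 ± 0.23 (limma adjusted p = 0.0307), with overlapping groups. Its call was lost without wild type replicate 2, 3 or 4 (limma adjusted p = 0.0745 to 0.0975), and the difference between the paralogs was not tested.

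In the large subunit 35 of 49 members rose, and in the small subunit 20 of 24 rose and Mrps16 fell, with median log2 changes of 0.64 and 0.91. Among mitochondria-specific members 13 of 20 in the large and 8 of 9 in the small subunit rose. Over all genes tested, 31.8% were called higher and 29.7% lower. Mrps16 fell by log2 0.48 (1.39-fold lower; limma adjusted p = 0.0423), and the call was lost without wild type replicate 1, 2 or 4 (limma adjusted p = 0.072 to 0.139) and with spike centring (log2 -0.08; limma adjusted p = 0.844). The smallest changes were Mrpl32 (log2 0.04), Mrpl10 (0.05), a stalk protein that carries Mrpl12, and Mrpl1 (-0.07). Mrps36, the member outside the ribosome, differed by log2 -0.13 and was not called (limma adjusted p = 0.558).

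Read over all 3 comparisons, 9 members were called higher in each of them: Mrpl12, Mrpl15, Mrpl20, Mrpl35, Mrpl42, Mrps18a, Mrps18b, Mrps2 and Mrps28. All 9 kept their 3 calls when single wild type or premalignant arrays were left out. With spike centring, Mrpl12, Mrpl42 and Mrps28 kept the call in premalignant relative to wild type cells, and Mrpl15, Mrpl20, Mrpl35, Mrps18a, Mrps18b and Mrps2 lost it (limma adjusted p = 0.051 to 0.147). Mrps2 also lost its call in malignant relative to premalignant cells under that scaling (limma adjusted p = 0.0589). Another 16 were called higher in premalignant and in malignant cells relative to wild type, but not between the transgenic stages, among them Mrpl19, Mrps22 and Mrpl50. In 13 members, among them Mrps5, Mrps9 and Mrps26, the calls were malignant over premalignant and malignant over wild type. A further 17 were called only between the endpoints, and 18 in no comparison. These comparisons share arrays, so the patterns are not independent of one another, and a missing call does not show that a step was flat. The share of all genes tested with each pattern was not counted, so these counts do not show that a pattern is particular to the members. Taken singly, 12.7% of all genes were called higher in premalignant relative to wild type cells. For malignant cells the share was 24.8% relative to premalignant and 31.8% relative to wild type cells.

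Other gene groups were set beside the members. Of all genes tested, 12.7% rose and 14.1% fell in premalignant relative to wild type cells. In malignant cells 24.8% rose and 17.3% fell relative to premalignant cells, and 31.8% rose and 29.7% fell relative to wild type cells. Of 45 cytosolic ribosomal protein genes tested, 3 rose and 0 fell in premalignant relative to wild type cells, 3 rose and 1 fell in malignant relative to premalignant cells, and 14 rose and 1 fell in malignant relative to wild type cells, with median log2 changes of 0.10, 0.06 and 0.16. The shares that rose, 6.67%, 6.67% and 31.1%, were below or near those of all genes. Of 73 nuclear genes for subunits of the respiratory chain and ATP synthase, some of whose core subunits the mitochondrial ribosome makes, 15 rose and 0 fell, 25 rose and 2 fell, and 47 rose and 3 fell in the same comparisons, with medians of 0.32, 0.25 and 0.55.

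**Figure D4:**
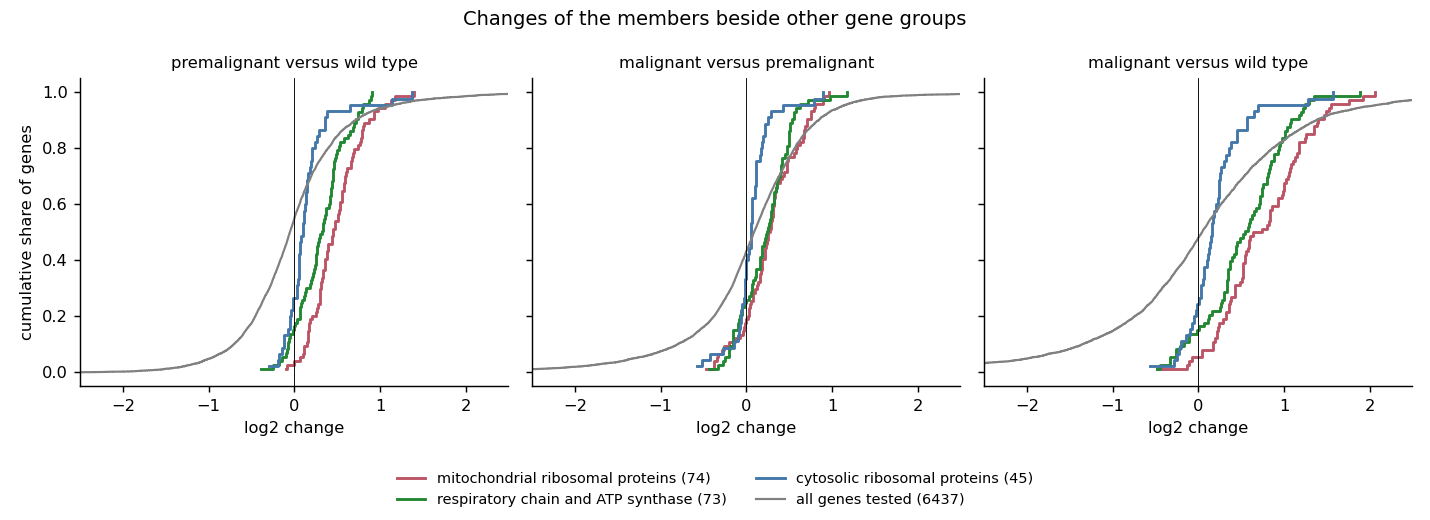
Cumulative share of genes by log2 change in each comparison for the 74 members, 73 respiratory chain and ATP synthase genes, 45 cytosolic ribosomal protein genes and all 6437 genes tested. The curve of the members lies to the right of the other groups through most of its height in the 2 comparisons with wild type, and runs close to the respiratory chain curve for malignant versus premalignant.

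Among 4 tested mitochondrial ribosomal proteins with other names, all rose in malignant relative to wild type cells, against 31.8% of all genes tested. They were Ptcd3 (2.62-fold), Dap3 (2.00-fold), Chchd1 (1.65-fold) and Gadd45gip1 (1.37-fold). In premalignant relative to wild type cells Chchd1 rose by log2 0.68, Gadd45gip1 by 0.56 and Ptcd3 by 0.53, and in malignant relative to premalignant cells Ptcd3 rose 1.81-fold and Dap3 1.58-fold (limma adjusted p of 0.000298 for Ptcd3 and 0.00417 for Dap3).

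Of 9 translation factors of mitochondria, 4 rose and 1 fell in malignant relative to wild type cells, 2 rose and 1 fell relative to premalignant cells, and 1 rose in premalignant relative to wild type cells. The shares that rose were 44.4%, 22.2% and 11.1% in that order, against 31.8%, 24.8% and 12.7% of all genes tested. Gfm1, the elongation factor that moves the ribosome along the messenger RNA, was called in all 3 and rose 3.03-fold in malignant relative to wild type cells (limma adjusted p = 9.36e-08), 1.98-fold in malignant relative to premalignant cells and 1.53-fold in premalignant relative to wild type cells. Tufm, the factor that delivers aminoacyl-tRNA (1.93-fold), the recycling factor Mrrf (1.84-fold) and the formyltransferase Mtfmt (1.74-fold) rose in malignant relative to wild type cells. Mtfmt also rose relative to premalignant cells, by log2 0.50. Mtif2, the initiation factor, fell by log2 0.52 in malignant relative to wild type cells (limma adjusted p = 0.00977) and by log2 0.59 relative to premalignant cells.

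Of 15 assembly and RNA-modifying factors of the mitochondrial ribosome, 4 rose and 1 fell in malignant relative to wild type cells, 3 rose and 1 fell relative to premalignant cells, and 2 rose in premalignant relative to wild type cells. The shares that rose were 26.7%, 20% and 13.3%, near or below the 31.8%, 24.8% and 12.7% of all genes tested. In malignant relative to wild type cells the GTPase Noa1 rose 2.85-fold and the ribosomal RNA methyltransferase Mrm3 rose 2.21-fold, while Mterf3 fell by log2 1.39. Of 17 genes for mitochondrial transcription, RNA processing and tRNA modification, 7 rose and 0 fell in each comparison with malignant cells, and 1 rose, the helicase Supv3l1 (1.90-fold), in premalignant relative to wild type cells. For this list the shares that rose were 41.2% in both malignant comparisons and 5.88% in premalignant relative to wild type cells. The tRNA-processing nuclease Elac2 rose 3.76-fold, the pseudouridine synthase Pus1 rose 2.76-fold, and the RNA-stabilising partners Slirp (2.49-fold) and Lrpprc (2.14-fold) rose in malignant relative to wild type cells.

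Markers of cell types moved with the stages. All 7 tested B cell markers fell in malignant relative to wild type cells, with a median log2 change of -1.97, and the mean log2 level of the whole list ran between 10.4 and 10.6 in wild type, 9.78 and 9.97 in premalignant and 7.52 and 9.03 in malignant arrays. Among 7 tested stromal and endothelial markers, 4 rose in malignant relative to wild type cells (Sparc at least 14.6-fold, Col3a1 at least 17.0-fold, Col1a2 at least 13.3-fold and Dcn at least 6.68-fold), Pecam1 fell, and Col1a1 and Vcam1 were not called. Their whole-list mean ran between 5.92 and 7.68 in malignant and 4.24 and 4.59 in wild type arrays. The T cell list, with 1 tested gene, had a mean of 2.79 to 3.39 in malignant and 2.90 to 3.06 in wild type arrays, below the level of 4 used as the filter. Myeloid markers ran between 4.11 and 7.02 in malignant and 4.35 and 5.29 in wild type arrays. Plasma cell markers ran between 6.05 and 6.62 in wild type, 5.33 and 6.65 in premalignant and 3.30 and 5.61 in malignant arrays. Erythroid markers stood at 5.66 on wild type replicate 2 and 6.65 on premalignant replicate 2, and the highest value on a malignant array was 2.70. The part of other cells in the members' changes was not tested.

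Several members are read by more than 1 probe set, 23 of them by more than 1 that passed the filter. Over all 106 passing probe sets of members, 73 were called higher and 2 lower in malignant relative to wild type cells, 28 higher and 2 lower relative to premalignant cells, and 31 higher and 1 lower in premalignant relative to wild type cells. Among all genes tested, each through 1 probe set, 31.8%, 24.8% and 12.7% were called higher in that order. The 28 of 106 was near the second of these shares. All passing probe sets of a member changed in the same direction in 17 of the 23 in premalignant relative to wild type cells. In malignant cells this held for 12 relative to premalignant and 20 relative to wild type cells. Mrpl11 was the single member with calls in opposite directions. In malignant relative to wild type cells its brightest probe set changed by log2 1.10 and another by 1.14, while the third changed by -0.37 (limma adjusted p = 0.00789). Mrps9 is read by 4 probe sets. In malignant relative to premalignant cells they changed by log2 0.96 (the brightest), 2.38, 0.44 and 0.08, and in premalignant relative to wild type cells, in the same order, by 0.44, -0.66 (limma adjusted p = 0.0493), 0.34 and 0.09. The probe set with 2.38 and -0.66 averaged log2 3.09 in premalignant and 3.75 in wild type arrays, both below the filter level of 4. Its -0.66 is thus a difference between dim signals, and its 2.38 starts from a mean below that level. The size given above for Mrps9 therefore holds for 1 of its 4 probe sets. The dimmer probe set of Mrps5 averaged 5.01 in malignant and 4.83 in premalignant arrays, against 6.42 and 5.51 for the brightest. For Mrpl15 the dimmer passing probe sets averaged 7.63 and 7.43, 7.44 and 7.47, and 6.52 and 6.35, against 8.32 and 7.76 for the brightest. The malignant over premalignant calls of these members are those of their brightest probe sets.

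The members varied among the lymphomas about as much as other genes, with a median SD over the 13 malignant arrays of log2 0.31, against 0.33 for all genes tested. Mrpl14 (SD 0.14), Mrpl4 (0.17) and Mrpl28 (0.18) varied least. Mrpl36 (0.59), Mrps12 (0.54) and Mrpl32 (0.49) varied most. Mrps12, a homologue of the S12 decoding-site protein, had a lowest, median and highest value of 7.28, 7.82 and 9.16, and the highest was replicate 12.

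The spread of Mrpl36 and Mrpl32, both large-subunit proteins, followed the chromosome on which they lie. 4 members lie on chromosome 13, namely Mrpl32, Mrpl36, Mrps30 and Mrps36. Malignant replicates 4, 8 and 9 had log2 intensities of 5.63, 5.46 and 5.41 for Mrpl32, against 5.84 to 6.92 on the other malignant arrays. For Mrps36 these 3 replicates had 5.48, 5.85 and 5.50, against 6.23 to 6.57 on the others. They were also the lowest of the malignant arrays for Mrps30, while for Mrpl36 replicate 11 (5.06) lay among them. The other 226 tested genes of chromosome 13 were low on the same arrays, with a median deviation from each gene's malignant median of log2 -0.58, -0.32 and -0.71 in replicates 4, 8 and 9, against 0.00 to 0.18 on the other 10 arrays. None of the 4 members was called in malignant relative to wild type cells.

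On chromosome 5, which holds Mrpl1, Mrpl33, Mrps17 and Mrps18c, replicates 8 and 9 were high, with a median deviation of log2 0.34 and 0.38 over the other 418 tested genes, against -0.10 to 0.01 elsewhere. Mrps18c reached 8.47 and 8.56 on these 2 arrays. It was also at 8.23 and 8.31 on replicates 1 and 4, where the other genes of the chromosome deviated by 0.00 and 0.01. Shifts of this kind touched other chromosomes with members, some in several arrays and some in 1. On chromosome 6 the other 332 genes deviated by log2 0.37, 0.24 and 0.24 in replicates 2, 6 and 11. On chromosome 3 the other 317 genes deviated by 0.37 and 0.30 in replicates 4 and 13. Chromosome 17 was high in replicate 11 (log2 0.38 over 342 other genes, 0.36 over 7 members). In replicate 1 the 7 members there deviated by 0.65 and the other genes by -0.01. Chromosome 15 was high in replicate 1 (log2 0.47 over 244 other genes, and 1.05 for the 1 member there, Mrpl13). The view by chromosome was chosen after the values were seen and is a description without a test. What sets these levels was not tested.

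**Figure D5:**
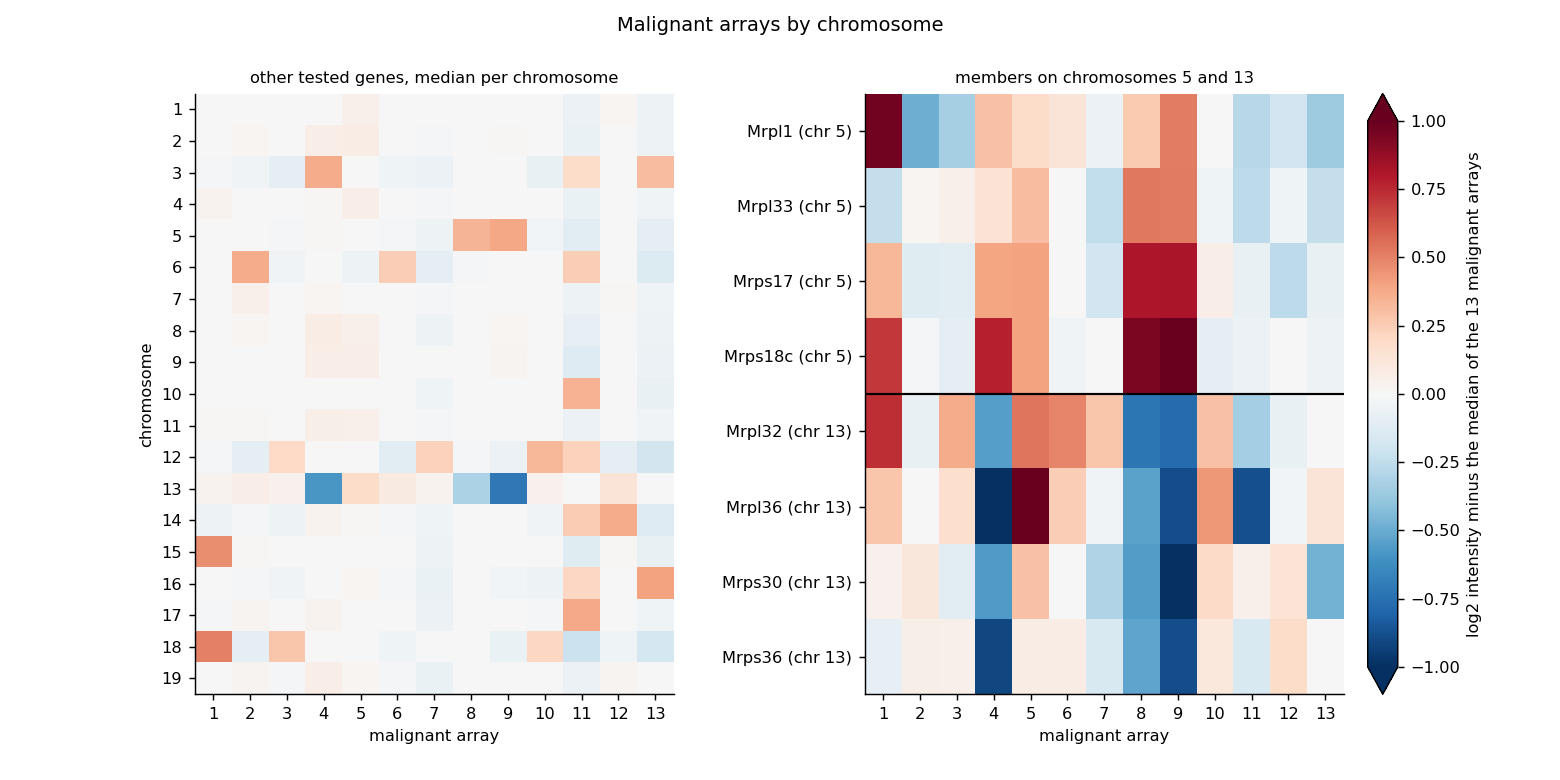
Left, median deviation of all tested genes other than members on each chromosome (rows) in each malignant array (columns), where a gene's deviation is its log2 intensity minus its median over the 13 malignant arrays. Right, the same deviation for the members on chromosomes 5 and 13. Chromosome 13 is low in replicates 4, 8 and 9 and chromosome 5 high in replicates 8 and 9, in both panels.

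Whether members followed the level of Myc from lymphoma to lymphoma was examined within the malignant arrays, where Myc ran between log2 8.67 and 10.8. Of the 74 members, 55 had a positive Pearson correlation with Myc, with a median r of 0.28 (Spearman's rho 0.30). Over all genes tested, 3464 of 6436 were positive, with a median r of 0.05. With each array centred on its median, 52 members and 3213 of all genes were positive, and the members' median r was 0.25. 13 members (17.6%) had an unadjusted p under 0.05 in a permutation test, against 12.9% of all genes, and 0 members passed adjustment over all genes (lowest adjusted p = 0.12). Without the 2 arrays farthest from the median of Myc, the median r was 0.34. Mrpl2, an E-box member, had the highest correlation (r = 0.87, rho = 0.75, and r = 0.80 without the 2 farthest arrays; permutation p = 0.0001, adjusted p = 0.12), followed by Mrps18b (r = 0.77; permutation p = 0.00207, adjusted p = 0.18). At the other end was Mrpl41 (r = -0.69; permutation p = 0.00905, adjusted p = 0.269). Mrpl2 and Mrpl41 are named for these extremes after their values were seen. The other E-box members had r of 0.42 (Mrps18c), 0.15 (Mrpl20), -0.02 (Mrpl37) and -0.62 (Mrpl36). Mrpl2 and Mrps18b lie on chromosome 17, whose genes other than members were high (log2 0.38) on replicate 11, the array with the highest Myc. The part of that shift in the 2 correlations was not tested.

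With the 3′ minus 5′ difference of beta-actin, 57 members had a positive correlation over the same 13 arrays, with a median r of 0.14. Over all genes tested, 3790 of 6437 were positive, with a median r of 0.07. An unadjusted permutation p under 0.05 was found for 3 members (4.05%), against 6.70% of all genes, and 0 members passed adjustment. Without the 2 arrays farthest from the median of that difference, 33 members and 3708 of all genes tested were positive. Over the 2701 pairs of members, the mean correlation across the malignant arrays was 0.25, against 0.0081 over all pairs of genes tested, as a description of arrays that also share differences in depth of signal and quality.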

How the data were processed

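Expression was measured on MOE430A arrays of 4 wild type, 5 premalignant and 13 malignant samples. The authors deposited intensities made with GCRMA, per the submitters' processing notes, which corrects background from probe sequence, normalises between arrays and summarises probe sets. No source used here gives the GCRMA version or says if the arrays were processed jointly. The deposited values are linear, and log2 was taken here. The number of arrays limits the precision.

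Probe sets with log2 above 4 on at least 4 arrays were kept (10789 of 22690). The probe set with the highest mean stood for each gene with 1 symbol, which gave 6437 genes. 3 probe sets that name a member together with another gene were left out. The linear models of limma 3.58.1 (lmFit, eBayes, two-sided; R 4.3.3) took only the arrays of the groups compared, and a gene was called where its p, adjusted over all genes tested by Benjamini-Hochberg, was under 0.05. Where a group averaged less than log2 4, that level replaced the mean and the fold is written as at least N-fold. Relations over the malignant arrays used 100000 permutations (numpy 2.4.6, scipy 1.17.1). Values are given for the 6 largest called rises and all falls, the 3 smallest changes, the 3 highest and lowest SDs, the Mrps18 paralogs, members with probe sets called in opposite directions, and called genes of the mitochondrial lists (up to 4 of the longer ones). Others are named where stated as picked later, or for a count. S6 kinases, a pseudogene and complex I assembly factors, which share the name patterns of the cytosolic ribosomal protein and respiratory chain lists, were removed from those lists after their values were seen. The members, lists and tests were chosen with earlier results of these data known.

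The fit was tested on simulated data, where the share of unchanged genes among calls was higher when each gene's spread was allowed to differ between groups than when it was pooled, most of all in the comparisons with malignant cells, whether or not arrays were weighted by group. The pooled simulation was added after the other had been seen, and calls with malignant cells may therefore hold more false ones than the threshold states. Alternatives covered the filter, the choice of probe set, scaling, array weights, 1 fit over all groups, a replicate block and leaving out arrays.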

Additional observations from a re-analysis of the deposited data

Results flagged for a closer look

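Among 60 sets of values examined, those of the named members, the members' median and Myc in the premalignant and wild type groups, 2 held an array far from its group by Dixon's ratio. Chance alone marks about 1 in 20 such groups. Mrpl19 stood at log2 6.07 on premalignant replicate 5, against 6.62 to 6.76 on the other premalignant arrays. Mrps5 stood at log2 6.17 on premalignant replicate 1, against 5.20 to 5.48 on the others.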

How the results depend on the processing

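Calls of higher members kept within 1.5 times of 25, 22 and 55 (premalignant against wild type, malignant against premalignant, malignant against wild type) in all alternatives but spike centring, where 7 members were called higher at the first. The median of all genes was then 0.20, 0.22 and 0.43, the members' medians 0.71, 0.40 and 1.09, and the splits of all calls 455 to 105, 1209 to 562 and 2349 to 788, against 818 to 907, 1597 to 1114 and 2045 to 1911. A narrower set of 9 spikes, the first one tried, gave 3 members higher at the first comparison and a median of 1.01 at the last, with splits of 300 to 97, 1226 to 511 and 2076 to 843. At the first comparison the share of members called higher was thus not above that of all genes with the narrower set. The set of 18 spikes was taken after these values were seen, so both are given. The count of members called lower moved most: against 0, 1 and 1, it was 1, 2 and 2 over every passing probe set, 2 with median centring and 3 with quantile normalization in malignant against premalignant, and 0 in both malignant comparisons under either spike set, the replicate block, the same arrays with no block, and without wild type replicate 2 and premalignant replicate 1 together. Leaving out 1 wild type or premalignant array gave 17 to 34, 19 to 25 and 46 to 52 higher, and 0, 0 to 2 and 0 to 1 lower. The replicate block gave 25, 15 and 44 higher, against 34, 21 and 45 on the same arrays with no block. The numbers were not taken as pairs, since the deviations of same-numbered premalignant and wild type arrays correlated by only -0.06 to 0.21. The block ended the call of Mrpl34 in premalignant against wild type (log2 1.00, limma adjusted p = 0.0666) and those of Mrpl15 (limma adjusted p = 0.0739) and Mrpl42 (limma adjusted p = 0.0604) in malignant against premalignant, where a mean over probe sets ended those of Mrpl15 and Mrps2 (0.178 and 0.177). No malignant array was left out. Group-wise array weights gave 27, 22 and 55. With no filter, the calls of all genes were 1640 to 3289 and 2124 to 5797 in the malignant comparisons. Members positively related to beta-actin numbered 33 without the 2 farthest arrays.

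Of 1641 values of single genes under alternatives, 1499 kept direction and call, 64 lost the call, 28 gained it and 50 changed sign. No called value changed sign. With the whole name patterns, the cytosolic list had 3 and 1, 3 and 1, and 14 and 4 genes higher and lower of 48, and the respiratory chain list 17 and 0, 26 and 2, and 49 and 4 of 77. The sign changes, all of small changes, were as follows. In premalignant against wild type, Mrpl1 was -0.0021 without both arrays and -0.0155 to 0.14 without 1 array. Mrpl41 was 0.0728 as a probe set mean, 0.171 with spikes, 0.0596 with the narrower spikes and -0.192 to 0.0263 without 1 array. Mrps16 was 0.0372 with quantile normalization, 0.254 and 0.143 with the spike sets, 0.0603 with and without the block, and -0.153 to 0.0802 without 1 array. In malignant against premalignant, Mrpl1 was 0.0931 as a mean and 0.0044 and 0.0415 with the spike sets, Mrpl19 was -0.0013 as a mean, and Mrpl34 was -0.0021 and Mrpl4 -0.008 with quantile normalization. Without 1 array, Mrpl34 was -0.0739 to 0.213 and Mrpl4 -0.0254 to 0.115. Mrpl45 was 0.118 and 0.155 with the spike sets, 0.0449 with and without the block, 0.218 without both arrays and -0.186 to 0.218 without 1 array. Mrpl58 was 0.126 and 0.163, 0.0333, 0.0205 and -0.112 to 0.0382 under the same settings. Mrps7 was -0.0313 with median centring, -0.0612 with quantile normalization and -0.108 to 0.095 without 1 array. In malignant against wild type, Mrpl1 was 0.161 as a mean, 0.324 and 0.249 with the spike sets and -0.147 to 0.0088 without 1 array. Mrpl32 was -0.0002 with median centring, -0.0013 with quantile normalization and -0.004 to 0.106 without 1 array, and Mrpl10 was -0.0434 to 0.119 without 1 array. The cause was not tested.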
